A study of Rattus norvegicus with 4 samples.

Results

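Potassium channel genes were followed through 4 RNA libraries of the rat: whole choroid plexus of males, whole choroid plexus of females, choroid plexus epithelial cells captured by FACS, and kidney proximal tubules. The genes were those with names starting KCN in any of 3 lists of membrane channels drawn up by the study, 1 for the male tissue, 1 for the FACS cells and 1 for the proximal tubule, which gave 34 genes out of the 32883 gene IDs measured and among 107 channel genes in the 3 lists. Of the 34, 31 came from the male list, 29 from the FACS list and 3 from the proximal tubule list. The lists keep genes at or above 0.5 TPM (a transcript level corrected for transcript length that sums to 1000000 in each library), so whether a gene reached 0.5 TPM in these 3 libraries was part of the choice and is given as a description. The lowest genes that entered were KCNK3 at 0.58 TPM in the male list and KCNN3 at 0.55 TPM in the FACS list.

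All rats were Sprague Dawley, 9 weeks old, and no other treatment or allele is labelled. The male and the female choroid plexus library were each made from a pool of 5 rats, with tissue of the lateral and the fourth ventricles. The FACS library was a pool of 10 male rats, from cells freed with collagenase and sorted with an antibody against the cotransporter NKCC1. The proximal tubule library was a pool of 5 male rats, from enzyme-digested kidney whose tubules were picked by hand under a microscope. The kidneys were taken from the study's male rats, so that library and the male choroid plexus library may share animals. With 1 pooled library per condition there was no replicate check, no test between conditions was possible, and each interval given here is a 95% interval for counting error alone.

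Potassium channels let K+ leave or enter a cell down its electrochemical gradient and set the membrane potential. In the choroid plexus epithelium, which secretes cerebrospinal fluid, they give an exit path for the K+ that the Na+/K+-ATPase brings into the cell. Inward rectifiers (KCNJ genes, Kir proteins) and tandem pore domain channels (KCNK genes) conduct at rest, voltage-gated channels (KCNA, KCND, KCNG, KCNH, KCNQ and KCNS genes among others, Kv proteins) open on depolarisation, and KCNN channels open on a rise in intracellular calcium.

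Expected counts, the estimates of read pairs per gene from which TPM was computed, summed to between 23873318 and 28324976 per library. In the proximal tubule library 70.7% of them lay in 13 mitochondrially encoded genes, which left 7352952 for all others, so levels there are given after these genes were removed and the rest rescaled to 1000000. The libraries carried the markers of their labels. TTR, the transthyretin gene of the choroid plexus epithelium, had 238565, 285892 and 389655 TPM in the male, female and FACS libraries. It was 1 of 2 among 14 markers of that epithelium that were higher in the FACS library than in male tissue. The other 12 were lower, where 78.0% of all genes were lower. The 6 proximal tubule markers were all at least 2-fold higher in the proximal tubule than in male tissue. The FACS library stood apart in its immune markers, which are given with the results they touch. In such bulk libraries, fewer cells of a type and less RNA per cell cannot be told apart.

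One gene made up most of the potassium channel RNA of the choroid plexus. KCNJ13 (Kir7.1, ENSRNOG00000016057), an inward rectifier known from the apical membrane of the choroid plexus and of the retinal pigment epithelium, had 1372 TPM in the male, 1195 in the female and 685 in the FACS library, which was 80.2%, 79.9% and 74.1% of the summed TPM of the 34 genes. Together with KCNK1, the next gene, it held 89.5%, 89.2% and 86.7%. The remaining genes were spread over low levels, with a median over all 34 of 2.74 TPM in the male, 2.11 in the female and 2.56 in the FACS library. At or above 10 TPM stood 9, 8 and 4 genes, and under 1 TPM 11, 13 and 9.

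The male library held 1710 TPM of the 34 genes together, the female library 1495 TPM and the FACS library 924 TPM. This was 55.8%, 55.2% and 44.8% of the TPM of all 107 listed channel genes. In the proximal tubule they summed to 328 TPM, all of it from 3 KCNJ genes. The 0.5 TPM cut-off was reached by 31 genes in male tissue (41.4% of all gene IDs reached it), 29 in female tissue (40.8%), 29 in FACS cells (39.9%) and 3 in the proximal tubule (18.5%). The female library alone played no part in the choice of the genes. There, the genes under 0.5 TPM were KCNJ2, KCNJ12, KCNK3, KCNJ16 and KCNJ1, with between 0.02 and 0.44 TPM.

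**Figure D1:**
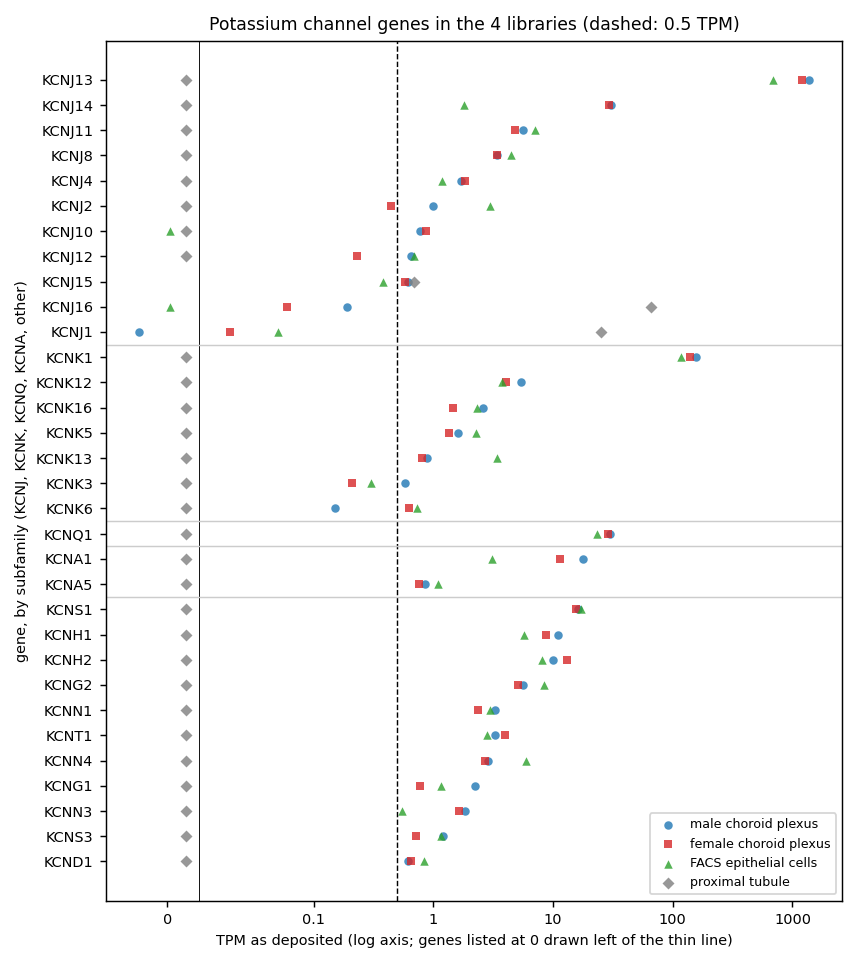
TPM as deposited (log axis) of 32 of the 34 potassium channel genes, 1 row a gene and ordered by subfamily, in the male (circles), female (squares) and FACS (triangles) choroid plexus libraries and the proximal tubule (diamonds), with 1 point per library. KCNJ13 lies at 685 to 1372 TPM in the choroid plexus libraries, the FACS points of KCNJ14 (1.81 TPM) and KCNA1 (3.08 TPM) lie far left of the whole tissue points, and all genes drawn but KCNJ16, KCNJ1 and KCNJ15 are listed at 0 in the proximal tubule.

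By subfamily, the 11 KCNJ genes held 82.8%, 82.7% and 76.2% of the summed TPM in the male, female and FACS libraries, and 70.7%, 70.3% and 60.1% of the expected counts. The 7 KCNK genes held 9.88%, 9.87% and 14.0% of the TPM. KCNQ1 alone held 1.76%, 1.93% and 2.51%, and the 2 KCNA genes 1.09%, 0.809% and 0.451%. The 13 genes of other subfamilies held 4.44%, 4.68% and 6.93%, and each of the 13 was at or above 0.5 TPM in all 3 choroid plexus libraries.

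Among the inward rectifiers, KCNJ13 had the highest TPM of all listed channels in both whole tissues and stood in place 2 in the FACS library, behind the water channel AQP1 at 687 TPM, a level inside its own counting interval. Its level rested on 33116, 28261 and 17279 expected counts, and its intervals were 1357 to 1387, 1181 to 1209 and 675 to 695 TPM. KCNJ14 (Kir2.4, ENSRNOG00000021056), a strong inward rectifier known from motor neurons of the brainstem, had 30.6 TPM in the male, 29.4 in the female and 1.81 in the FACS library. It was the inward rectifier with the next highest level in both whole tissues, while KCNJ11, KCNJ8 and KCNJ2 stood over it in the FACS library.

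KCNJ11 (Kir6.2) and KCNJ8 (Kir6.1) form the pore of the ATP-sensitive channels. KCNJ11 had 5.64, 4.77 and 7.02 TPM in the male, female and FACS libraries, and KCNJ8 had 3.42, 3.39 and 4.48 TPM. Of the genes of their sulfonylurea receptor subunits, ABCC8 was at 1.77, 2.10 and 2.28 TPM and ABCC9 at 5.33, 3.61 and 3.51 TPM.

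The other strong rectifiers of the Kir2 group were low. KCNJ4 (Kir2.3) had 1.69, 1.85 and 1.18 TPM, KCNJ2 (Kir2.1) 0.99, 0.44 and 2.98 TPM, and KCNJ12 (Kir2.2) 0.65, 0.23 and 0.69 TPM. KCNJ10 (Kir4.1), the main inward rectifier of astrocytes, had 0.78 and 0.87 TPM in the whole tissues from 22 and 24 counts, and no count in the FACS library, where the floor of 3 counts set for a count of 0 stands for 0.102 TPM. KCNJ15 (Kir4.2) had 0.61, 0.58 and 0.38 TPM from 18, 17 and 12 counts. KCNJ16 (Kir5.1) and KCNJ1 (Kir1.1), both channels of the kidney, were under the 0.5 TPM cut-off in all 3 choroid plexus libraries, with at most 0.19 and 0.05 TPM.

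Of the tandem pore domain channels, KCNK1 (TWIK-1, ENSRNOG00000019937) carried nearly all the RNA, with 158 TPM in the male, 139 in the female and 116 in the FACS library and place 3 among the channels in each. KCNJ13 exceeded it 8.70-fold in the male, 8.60-fold in the female and 5.89-fold in the FACS library. KCNK12 (THIK-2) followed with 5.37, 4.06 and 3.76 TPM, and KCNK16 (TALK-1), known from pancreatic islets, with 2.62, 1.47 and 2.31 TPM. KCNK5 (TASK-2), which opens in alkaline conditions, had 1.61, 1.35 and 2.26 TPM.

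The remaining KCNK genes were at or under 1 TPM in the whole tissues. KCNK13 (THIK-1), known from microglia, had 0.88 TPM in the male, 0.80 in the female and 3.41 in the FACS library. KCNK3 (TASK-1), an acid-sensitive channel, had 0.58, 0.21 and 0.30 TPM. Its expected counts were 26, 16 and 34, so that male and FACS libraries changed order between TPM and counts. The effective length given for KCNK3 was 1822 bases in the male and 4341 in the FACS library. KCNK6 (TWIK-2) had 0.15, 0.62 and 0.73 TPM, from expected counts of 2.46, 9.93 and 12.4. Such counts that are not whole arise where reads are split between genes, so its level is uncertain. The other 33 genes had whole counts within 0.005 in each library.

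Of the voltage-gated channels, KCNQ1 (Kv7.1, ENSRNOG00000020532), a channel that works with KCNE subunits in epithelia and the heart, had 30.1 TPM in the male, 28.8 in the female and 23.2 in the FACS library, in places 11, 10 and 9 among the channels. KCNE2, the subunit that keeps KCNQ1 open in epithelia and stands outside the 3 channel lists, had 708, 749 and 621 TPM, which was 23.6, 26.0 and 26.8 times the level of KCNQ1. KCNA1 (Kv1.1, ENSRNOG00000019750), a channel best known from axons, had 17.7, 11.3 and 3.08 TPM, in places 14, 20 and 43. KCNA5 (Kv1.5) had 0.85, 0.76 and 1.09 TPM.

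KCNS1 (Kv9.1, ENSRNOG00000013681) encodes a subunit that is silent on its own and works in complexes with other Kv subunits. It had 16.1, 15.5 and 17.0 TPM, in places 16, 15 and 11. The other silent subunits were KCNG2 (Kv6.2) with 5.63, 5.13 and 8.38 TPM, KCNG1 (Kv6.1) with 2.21, 0.77 and 1.16 TPM, and KCNS3 (Kv9.3) with 1.20, 0.71 and 1.15 TPM.

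The ether-a-go-go type channels KCNH1 (Kv10.1) and KCNH2 (Kv11.1), the latter known as the cardiac hERG channel, were close to each other, at 11.0, 8.78 and 5.73 TPM and at 10.0, 13.1 and 8.03 TPM. KCND1 (Kv4.1), an A-type channel, had 0.61, 0.65 and 0.84 TPM.

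Among the channels gated by intracellular ions, KCNN1 (KCa2.1) had 3.26, 2.37 and 2.95 TPM and KCNN3 (KCa2.3) had 1.82, 1.65 and 0.55 TPM. KCNN4 (KCa3.1), known from lymphocytes, macrophages and red blood cells, had 2.85 and 2.69 TPM in the whole tissues and 5.93 TPM in the FACS library. KCNT1, listed as KCa4.1, had 3.24, 3.97 and 2.81 TPM.

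Other genes of K+ transport stood beside these channels. A list of 19 of them, with pump subunits, cotransporters and channel partners, summed to 5300 TPM in the male, 5018 in the female and 4179 in the FACS library. The Na+/K+-ATPase subunit gene ATP1B1 had 1553 TPM in the male library, SLC12A2, which encodes NKCC1, 268 TPM and the K+-Cl- cotransporter gene SLC12A4 192 TPM. KCNJ13 stood 5.13-fold, 5.04-fold and 4.56-fold over SLC12A2 in the male, female and FACS libraries.

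The comparison of the sexes asked whether the transport genes of the choroid plexus differ between male and female rats. All 32 potassium channel genes that could be compared lay within 2-fold of each other in the 2 libraries on the log2(TPM + 1) scale, the leading genes KCNJ13, KCNK1, KCNJ14 and KCNQ1 among them. Genes under 1 TPM in both libraries cannot pass 2-fold on this scale, so for them this outcome was fixed in advance. Over these 32, the genes at or above 0.5 TPM in either library, the median difference, female minus male, was -0.10, against -0.16 over all 13869 genes tested. By this measure 0 genes were at least 2-fold higher (0.44% of all genes were) and 0 at least 2-fold lower (0.959% were). The range ran from -0.86 for KCNG1 to 0.49 for KCNK6.

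In the female library 26 of the 32 genes were lower and 6 higher, where 76.7% of all genes were lower. Relative to the median of all genes, 18 were higher and 14 lower, and again 0 passed 2-fold in either direction (0.62% and 0.757% of all genes did). KCNJ13 was 1.15-fold lower in the female library (1.13 to 1.17) and KCNK1 1.13-fold lower (1.09 to 1.18). Relative to the median of all genes they were at -0.043 and -0.025 log2 units. KCNJ14, KCNQ1 and KCNS1 were each 1.04-fold lower, with intervals that held 1.

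KCNA1 was 1.56-fold lower in the female library (1.38 to 1.78), from 630 counts in the male and 395 in the female library. KCNG1 was 2.87-fold lower (2.04 to 4.10) from 134 and 46 counts, and KCNK16 1.78-fold lower (1.33 to 2.41). In the other direction, KCNH2 was 1.3-fold higher (1.18 to 1.43) and KCNT1 1.23-fold higher (1.07 to 1.40). As ratios of TPM without the pseudocount, KCNJ2, KCNJ12 and KCNK3 were also more than 2-fold lower, at levels under 1 TPM in both libraries. They had 15, 11 and 16 counts in the female library. Of this pair of libraries they reached 0.5 TPM in the male alone, which set their direction, and nothing is read from it. KCNK6, 4.13-fold higher, rested on under 10 counts in each library, and its interval of 1.09 to 48.1 was the widest of the 32. It reached 0.5 TPM in the female library alone of the pair, so nothing is read from its direction either. Of the 19 K+ transport partners, 5 were higher and 13 lower in the female library, and 0 passed 2-fold. Most cell type markers were lower in the female library too, where 76.7% of all genes were lower. All 11 immune genes were lower, with a median difference of -0.55 and sums of 957 and 615 TPM. So were 8 of 9 endothelial genes, all 5 mural and mesenchymal genes and both haemoglobin genes, the last with 6271 and 3230 TPM. Of 14 genes of the epithelium 12 were lower, with a median of -0.21. Of 8 genes of neurons and glia 5 were lower and 3 higher, with a median of -0.08. The median of all genes was -0.16, and the part of such cells in the values above was not tested.

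**Figure D2:**
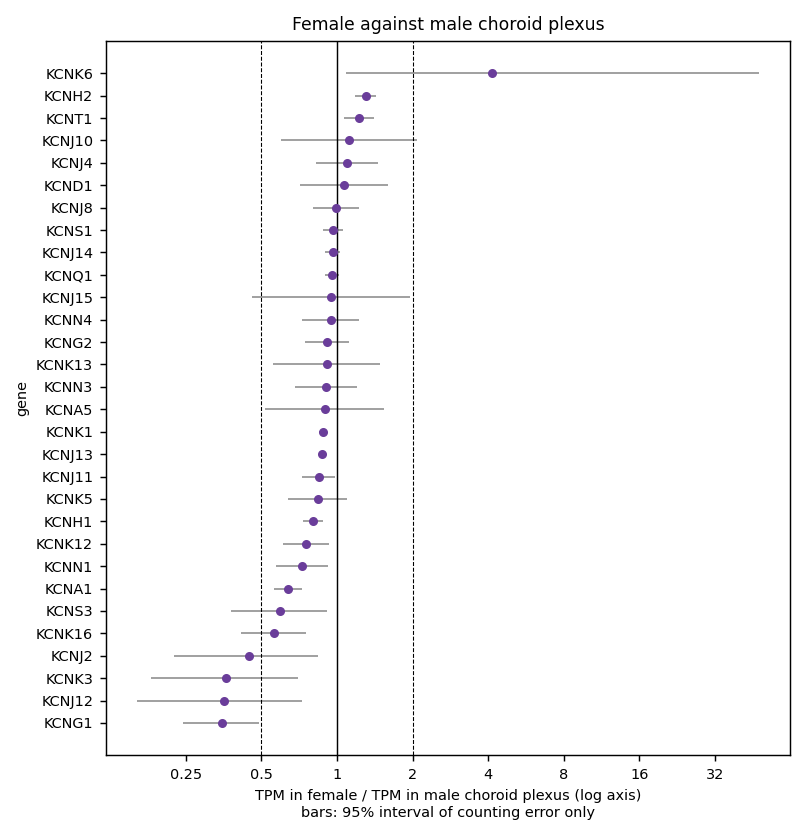
Ratio of TPM, female over male choroid plexus (log axis), of 30 of the 32 potassium channel genes at or above 0.5 TPM in either library, each with its 95% interval for counting error. The genes of high level lie close to 1, among them KCNK1 and KCNJ13, and KCNG1, at 2.87-fold lower, has an interval wholly past 2-fold.

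The comparison of FACS epithelial cells with the whole male tissue asked which transport genes of the tissue belong to the epithelium. Of 32 potassium channel genes, 27 lay within 2-fold of the male tissue on the log2(TPM + 1) scale. Those of the 27 under 1 TPM in both libraries could not have passed 2-fold on this scale. Far lower in the FACS cells stood 2 genes. KCNJ14 went from 30.6 to 1.81 TPM and KCNA1 from 17.7 to 3.08 TPM. KCNK13 and KCNJ2 were higher in the FACS cells, from under 1 TPM to 3.41 and 2.98 TPM. KCNJ13, KCNK1, KCNQ1 and KCNS1 were in places 2, 3, 9 and 11 among the channels of the FACS library.

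Over the 32 genes at or above 0.5 TPM in either library, the median difference of log2(TPM + 1), FACS minus male, was -0.19, against -0.58 over all 14024 genes tested. At least 2-fold higher were 2 genes, KCNK13 and KCNJ2 (4.61% of all genes were), and at least 2-fold lower were 3, KCNJ14, KCNA1 and KCNJ13 (25.5% were). Lower by any amount were 20 of the 32, against 78.0% of all genes. With the female library as the whole tissue, the median difference over 31 genes was 0.09, with 16 higher and 15 lower, against -0.46 over all genes. TPM has the same total in each library, and TTR took 389655 of it in the FACS library and 238565 in the male library. Relative to the median of all genes, 25 of the 32 were higher and 7 lower. At least 2-fold higher relative to that median were 5 genes, KCNK13, KCNJ2, KCNN4, KCNK6 and KCNG2 (10.9% of all genes). At least 2-fold lower were 2, KCNJ14 and KCNA1 (6.03%). KCNK6 had been chosen through the FACS list alone and was at 0.15 TPM in the male library. This set its direction, and nothing is read from it.

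KCNJ14 had 1842 counts in the male, 1737 in the female and 115 in the FACS library, and was 16.9-fold lower in the FACS cells than in the male tissue (14.0 to 20.6) and 16.2-fold lower than in the female tissue (13.4 to 19.8). KCNA1 had 630, 395 and 115 counts, and was 5.75-fold lower (4.71 to 7.08) and 3.68-fold lower (2.98 to 4.57). These were the 2 genes of the 32 that lay at least 2-fold under both whole tissue libraries, where 15.0% of all genes did.

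KCNJ13 was 2.0-fold lower in the FACS cells than in the male tissue (1.97 to 2.04), at -1.0 on the log2(TPM + 1) scale and so on the 2-fold mark. It was 1.74-fold lower than in the female tissue (1.71 to 1.78), and -0.42 relative to the median of all genes. After removal of the 10 genes with the most TPM its difference was -0.59, so whether it counts as 2-fold lower turned on the scaling. Among genes of the epithelium, AQP1 had 721 and 687 TPM in the male and FACS libraries, and KCNJ13 went from 1.90 times AQP1 to 0.997 times. KCNK1 was 1.36-fold lower (1.31 to 1.41) and KCNQ1 1.3-fold lower (1.22 to 1.39), both higher than the median of all genes, by 0.15 and 0.22 log2 units. KCNS1 was 1.06-fold higher, with an interval of 0.970 to 1.16.

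Further genes were lower in the FACS cells without passing 2-fold on the log2(TPM + 1) scale. KCNH1 was 1.92-fold lower as a ratio of TPM (1.73 to 2.12). KCNN3 was 3.31-fold lower (2.24 to 4.99) from 109 and 35 counts. KCNJ10, with no count in the FACS library, was at least 7.66-fold lower when a floor of 3 counts is set there. It had been chosen through the male list alone, which set its direction, and nothing is read from it. KCNG2 was 1.49-fold higher (1.25 to 1.77).

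KCNK13 was 3.88-fold higher in the FACS cells than in the male tissue (2.7 to 5.68), from 38 and 155 counts, and 4.26-fold higher than in the female tissue (2.93 to 6.37). KCNJ2 was 3.01-fold higher (2.03 to 4.57), from 34 and 108 counts, and 6.77-fold higher than in the female tissue (3.93 to 12.5). At 0.44 TPM in the female library, it reached 0.5 TPM in that pair through the FACS library alone. This set its direction against the female tissue, and nothing is read from it. KCNK13 and KCNJ2 were the 2 of 32 at least 2-fold over both whole tissue libraries, against 4.17% of all genes. KCNN4 was 2.08-fold higher than in the male tissue (1.66 to 2.62) and 2.20-fold higher than in the female tissue (1.77 to 2.76), and its difference of 0.85 on the log2(TPM + 1) scale did not reach 2-fold.

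**Figure D3:**
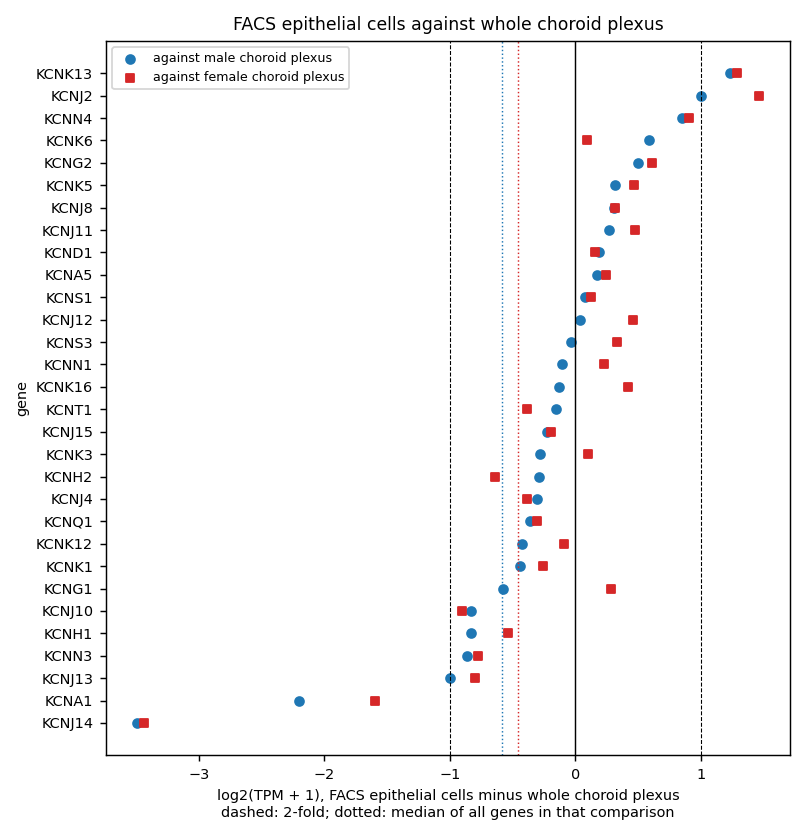
Difference of log2(TPM + 1), FACS epithelial cells minus whole choroid plexus, of 30 of the 32 potassium channel genes, against the male (circles) and the female (squares) library, with dashed lines at 2-fold and dotted lines at the median of all genes (-0.58 and -0.46). KCNJ14 and KCNA1 lie lower than -1 and KCNK13 and KCNJ2 at or over 1 in both comparisons, while KCNJ13 touches -1 against the male library only. KCNJ2 was under 0.5 TPM in the female library, so nothing is read from its direction there.

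Markers of other cell types moved between the FACS and the whole tissue libraries as well. A list of 11 immune genes summed to 957 TPM in the male, 615 in the female and 5281 in the FACS library, with none at 0. Higher in the FACS cells than in the male tissue were 9 of the 11, 8 of them at least 2-fold (4.61% of all genes were). CD74 went from 345 to 2556 TPM, the macrophage receptor gene CSF1R from 16.5 to 79.1 TPM and the microglial P2RY12 from 1.21 to 4.22 TPM. Of the 32 potassium channel genes 12 were higher in the FACS cells than in the male tissue and 20 lower. KCNK13, KCNJ2 and KCNN4 were among the 12, and so were KCNG2 (1.49-fold), KCNK5 (1.40-fold), KCNJ8 (1.31-fold) and KCNJ11 (1.24-fold). The part of immune cells in their levels was not tested.

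On the lower side, 8 genes of neurons and glia summed to 16.0 TPM in the male, 14.5 in the female and 7.25 in the FACS library, with 6 of the 8 lower than in the male tissue, where 78.0% of all genes were lower. Their median difference was -0.44, against -0.58 over all genes. GABRG3, a GABA receptor subunit gene, was the 1 past 2-fold, with 6.03 and 0.16 TPM, and the glial glutamate transporter SLC1A2 had no count in the FACS library. The receptor genes GRIN3B, with 0.90 and 2.07 TPM, and GABRD, with 0.56 and 1.10 TPM, were higher in the FACS cells. The 2 haemoglobin genes of red blood cells summed to 6271, 3230 and 1162 TPM. The epithelium list of 14 genes summed to 254222 TPM in the male and 399510 in the FACS library, but TTR and FOLR1 alone were higher and the median difference was -0.62. Lower by at least 2-fold were 6 of the 14 (25.5% of all genes were). Among them were the bicarbonate transporter genes SLC4A5, from 881 to 314 TPM, and SLC4A10, from 325 to 108 TPM. SLC12A2, whose protein was the target of the sort, had 268 TPM in the male and 150 in the FACS library.

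The 9 endothelial markers summed to 199, 164 and 280 TPM, none of them past 2-fold. The 5 mural and mesenchymal markers summed to 350, 266 and 384 TPM. Among them DCN was past 2-fold higher in the FACS cells, with 102 TPM in the male and 239 in the FACS library, and RGS5 past 2-fold lower, with 140 and 67.5 TPM. PDGFRA had 83.4 and 49.3 TPM. Of the K+ transport partners, 6 were higher and 10 lower in the FACS cells than in the male tissue, where 78.0% of all genes were lower. STK39, the kinase gene upstream of NKCC1, was past 2-fold lower, at 320 and 122 TPM (25.5% of all genes were). KCNE2 was 1.14-fold lower.

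**Figure D4:**
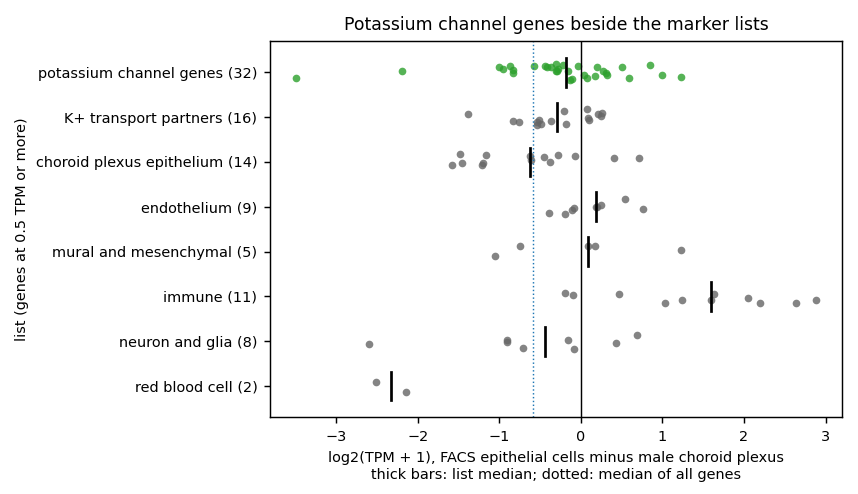
Difference of log2(TPM + 1), FACS epithelial cells minus male choroid plexus, of the 32 potassium channel genes beside the K+ transport partners and lists of cell type markers, 1 point a gene at or above 0.5 TPM in either library and a thick bar at each median. The potassium channel genes have a median of -0.19, the epithelium list of -0.62 and the immune list of 1.60, and the dotted line marks the median of all genes, -0.58.

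The kidney proximal tubule served the study as another epithelium that moves much fluid. Of the 34 genes, 3 had counts in its library, all of them inward rectifiers, and the lowest of the 3, KCNJ15, also reached 0.5 TPM in the male choroid plexus. KCNJ16 (Kir5.1, ENSRNOG00000004713), which conducts in complexes with Kir4.1 or Kir4.2, had 236 TPM there from 3656 counts, place 1 among the channels, against 0.19 TPM as deposited and 7 counts in the male choroid plexus. KCNJ1 (Kir1.1, ENSRNOG00000059005), the ROMK channel of the thick ascending limb and the collecting duct, had 89.3 TPM from 1646 counts and place 2. KCNJ15 (Kir4.2), a known partner of Kir5.1 in the proximal tubule, had 2.47 TPM from 31 counts.

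These 3 were the genes at least 2-fold higher in the proximal tubule than in the male choroid plexus, among the 33 that reached 0.5 TPM in either (12.1% of all 14227 genes tested were). KCNJ16 and KCNJ1 had been chosen through the proximal tubule list alone, which set their direction. Nothing is read from this count or from the direction of their folds, which are given as a description of levels. Against the male library, KCNJ16 was 1138-fold higher (552 to 2833), KCNJ1 at least 1129-fold higher with a floor of 3 counts in the male library, and KCNJ15 3.72-fold higher (2.02 to 7.06). The last had the lowest level of the 3, and KCNJ16 exceeded KCNJ15 95.4-fold and KCNJ1 2.64-fold within the proximal tubule. With mitochondrially encoded genes kept, KCNJ15 had 0.69 TPM and no longer passed 2-fold.

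The other 31 genes were listed at 0 in the proximal tubule, among them KCNJ13, KCNK1 and KCNQ1. At least 2-fold lower than in the male choroid plexus were 24 of the 33 (71.0% of all genes were) and lower by any amount 30 (82.0% were). These 30 reached 0.5 TPM through the male library alone, which set their direction. Nothing is read from their counts or from the median difference of the 33. The median difference of log2(TPM + 1) was -2.04, against -2.27 over all genes. Relative to that median, 21 of the 33 were higher and 12 lower, with 11 at least 2-fold higher (33.7% of all genes were) and 9 at least 2-fold lower (34.7%). Of the 21, 18 were listed at 0 in the proximal tubule, as were 8 of the 11, and nothing is read from these counts. A value of 0 was common there: 58.6% of all genes that reached 0.5 TPM in male tissue were listed at 0, and so were 670 of 1998 of the highest male genes and 2 of 72 ribosomal protein genes. No fold is therefore given for these 31 genes.

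Markers of the proximal tubule stood at between 21.6 TPM for the glucose transporter SLC5A2 and 3125 TPM for the amino acid transporter subunit SLC3A1. Markers of other nephron segments were present as well, 5 of 6 at or above 0.5 TPM (18.5% of all gene IDs were), with a sum of 33.8 TPM. SLC12A1, the cotransporter of the thick ascending limb, a segment in which KCNJ1 is also known, had 17.2 TPM from 776 counts, AQP3, a water channel of the collecting duct, 10.3 TPM, and SCNN1A, a subunit of its sodium channel, was listed at 0. KCNJ1 was at 89.3 TPM beside them, and the part of other segments in its level was not tested. Of the K+ transport partners, 8 of 19 were at or above 0.5 TPM in the proximal tubule, against the same 18.5% of all gene IDs. ATP1B1 had 98.8 TPM and SLC12A2 5.45 TPM, while KCNE2 was listed at 0 with 10 others.

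**Figure D5:**
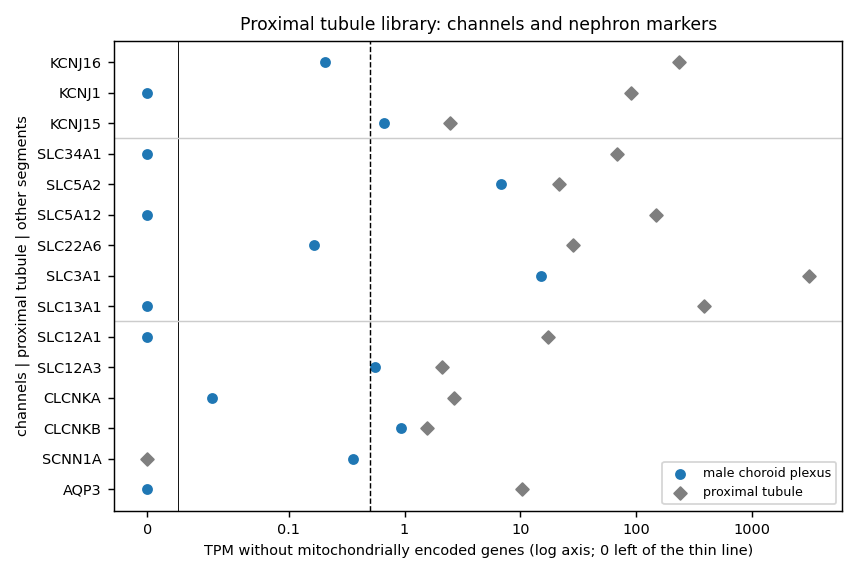
TPM without mitochondrially encoded genes (log axis) in the proximal tubule (diamonds) and the male choroid plexus (circles), 1 library each, of 3 KCNJ genes, 6 markers of the proximal tubule and 6 of other nephron segments. KCNJ16 and KCNJ1, at 236 and 89.3 TPM, lie among the proximal tubule markers (21.6 to 3125 TPM), and KCNJ15 at 2.47 TPM.

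All 34 genes were found by symbol in the RefSeq annotation of the rat assembly GRCr8, in which 3 pairs of them lie next to each other with no protein-coding gene between. KCNJ16 had 236 TPM in the proximal tubule, where its neighbour KCNJ2 was listed at 0. KCNA1 was 5.75-fold lower in the FACS cells than in the male tissue, while its neighbour KCNA5 was 1.28-fold higher, with an interval of 0.793 to 2.09. KCNK16 and KCNK5 were both low and within 2-fold of the male library in the female and FACS libraries.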

How the data were processed

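Per the labels and methods, the authors mapped paired 150-base reads to the genome build Rnor_6.0 (Ensembl 103 genes) by STAR 2.7.2a and quantified them by RSEM 1.3.3. They deposited for each gene an expected count (an estimate, 33 of 34 genes whole here), a TPM, an FPKM (not used) and an effective length in bases. Strandedness is not given in the sources used here, so antisense or near-identical genes are uncertain. Genes and lists were chosen with earlier results of these data known.

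From the deposited TPM, log2(TPM + 1) differences were computed over all genes at or above 0.5 TPM in either library, and 2-fold was the threshold for calling a gene. For the proximal tubule comparison 13 mitochondrially encoded genes were removed. Intervals are exact 95% Poisson (levels) or Clopper-Pearson (ratios) intervals of rounded counts and cover counting error only. The floor for a count of 0 was 3 counts. Python 3.11.15 with numpy 2.4.6, pandas 2.3.3, scipy 1.17.1 and matplotlib 3.10.9 was used, and the steps were tested on simulated data with 200 changed genes.

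Every gene was named with its TPM, except that a few genes of the lists, although counted in all sums and counts, are not reported here by name. Those at or above 5 TPM anywhere, past 2-fold in a comparison or among 8 genes chosen with earlier results known (KCNJ13, KCNK1, KCNQ1, KCNJ14, KCNA1, KCNS1, KCNJ16 and KCNJ1) were given in all libraries. Of the lists of K+ transport partners and cell type markers, ABCC8, ABCC9, STK39, GABRG3, GRIN3B, GABRD, DCN, RGS5, PDGFRA, CD74, CSF1R, P2RY12, SLC4A5 and SLC4A10 were picked as examples after their values were seen.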

Additional observations from a re-analysis of the deposited data

How the results depend on the processing

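For female against male, the median difference over the potassium channel genes was -0.10, and it was -0.14 with a pseudocount of 0.1 TPM, -0.12 with 0.5 TPM, 0.055 relative to the median of all genes, -0.034 when the 10 genes with the most TPM were removed, -0.11 over genes with at least 10 counts, -0.13 without mitochondrially encoded genes and -0.013 with expected counts scaled to the same total in place of TPM, an alternative chosen after seeing the data. With a pseudocount of 0.1 TPM 1 gene was 2-fold higher and 4 lower, and 1 was lower with 0.5 TPM or with scaled counts. For FACS against male, the median of -0.19 became -0.26 with 0.1 TPM, -0.24 with 0.5 TPM, 0.39 relative to the median of all genes, 0.13 without the 10 highest genes, -0.21 without mitochondrially encoded genes and 0.13 with scaled counts. There, 4 genes were 2-fold higher and 6 lower with 0.1 TPM, 6 lower with 0.5 TPM, 5 higher relative to the median and 4 higher without the 10 highest genes. In both comparisons some of these counts include genes that reached 0.5 TPM in 1 library of the pair alone. Nothing is read from the direction of those genes. Without the 10 highest genes, 18 of 32 were higher in the FACS cells and 13 of 32 in the female library, and with scaled counts 17 and 13. Shares over all genes were computed for the main values and relative to the median of all genes, and are given above. For the other alternatives they were not computed, so nothing is read from those counts. For the proximal tubule, the median of -2.04 became -5.00 with 0.1 TPM, -2.85 with 0.5 TPM, -2.55 without the 10 highest genes, -1.99 with no filter, -1.94 with mitochondrially encoded genes kept, -2.58 with scaled counts and -4.37 with a floor of 3 counts, the latter also chosen after seeing the data. Relative to the median of all genes it reversed to 0.23, with 11 genes 2-fold higher and 9 lower, because the median subtracted was -2.27. Of those 11, 8 were listed at 0 in the proximal tubule, so that count says nothing of higher levels there. Most of the genes compared were chosen through the male library and listed at 0 in the proximal tubule, so nothing is read from these medians. At or above 5 TPM were 12 male, 10 female and 10 FACS genes, and by counts the KCNJ genes held 70.7%, 70.3% and 60.1%. The cause of the other shifts was not tested.

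Of 154 alternative values of single genes, 76 belonged to differences past 2-fold, of which 70 stayed past it, 6 kept their sign but not 2-fold, and 0 changed sign. Most of the 76 were proximal tubule values, nearly all of genes that reached 0.5 TPM in 1 library of the pair alone. This set their direction, and nothing is read from the tally. The 6 no longer past 2-fold were KCNJ13 in 3 FACS alternatives, and KCNG1, KCNJ2 and KCNS3 in the proximal tubule with the female library as the whole tissue. Among values under 2-fold, 15 changed sign. No paired analysis was possible because each group was 1 library without a replicate number, and for the same reason no replicate could be left out. Depth limits the low genes: in the male library KCNJ2 at 0.99 TPM rested on 34 counts and KCNK13 at 0.88 TPM on 38.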
